A study of Homo sapiens with 2 samples.

Results

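FTL and FTH1 encode the light and the heavy subunit of ferritin, the protein shell in which cells store iron. Their mRNAs were examined here in the YB-1 PAR-CLIP data of HEK293T cells, a human embryonic kidney line, where YB-1 is an abundant mRNA-binding protein of the cold shock domain family. The members are all PAR-CLIP clusters that share at least 1 base with the annotated span of FTL or FTH1 on the same strand (GENCODE release 44, hg38). There were 3 such clusters among 1382 in Rep.A (2 in FTL and 1 in FTH1) and 2 among 2011 in Rep.B (both in FTL), or 5 in all. Beside them stand 10 clusters in exons of ferritin pseudogenes, 4 in Rep.A and 6 in Rep.B. The members were picked by their place in the called peaks, so their number is a description and no test was made of it.

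Both replicates came from wild-type cells (genotype wt) of 1 condition, with no control library. The cells took up 4-thiouridine (100 µM, 16 h). Light of 365 nm, at 0.15 J/cm2, then linked the modified base to bound protein, which makes it read as C in place of T. RNA in a cleared NP40 lysate, labelled as cytoplasmic RNA, was digested with RNase T1, an enzyme that cuts behind G. It was recovered with a polyclonal rat antibody raised against a C-terminal peptide of YB-1. A cluster is a stretch of overlapping reads with at least 1 position of such T-to-C transitions, and its mean coverage is the number of reads over it per base, not scaled for depth. The tables list clusters only, so coverage elsewhere on these mRNAs, mRNA levels and markers of the cell line could not be read from them.

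Ferritin synthesis is a textbook case of control at translation. A hairpin in the 5′ UTR of both mRNAs, the iron-responsive element (IRE), is bound by the iron regulatory proteins IRP1 and IRP2 when iron is scarce, and this blocks ribosome loading. When iron is plentiful, the proteins leave the hairpin and the mRNAs are translated. Both genes also have many processed pseudogenes, which are intronless copies of the mRNA inserted elsewhere in the genome, so a short read of ferritin mRNA can match several places.

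The sequences that carry the result are the hairpin, which held no cluster, and the sequences that did. The IRE is given first, with its 6-base loop in capitals. In FTL it lies at bases 28 to 54 of the mRNA (chr19:48965336-48965362, plus strand) and in FTH1 at bases 34 to 60 (chr11:61967575-61967601, minus strand), and 25 of its 27 bases are the same in both genes.
FTL IRE: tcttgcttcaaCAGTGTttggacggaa
FTH1 IRE: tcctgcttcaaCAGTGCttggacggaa

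The sequences under the clusters follow, with the tetramers CACC and CATC in capitals. Site 1 and site 2 of FTL are in the coding sequence. The FTH1 3′ UTR sequence was a cluster on the gene itself in Rep.A.
FTL site 1: cctcctaCACCtacctctctctg
FTL site 2: acCACCtgaccaacctccacag
FTH1 3′ UTR: accaaaaCATCcacttaag

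FTL carried 2 clusters in each replicate, at the same bases in Rep.A and Rep.B, and both were in the coding sequence. The FTL gene (ENSG00000087086.15) spans chr19:48965309-48966879 on the plus strand. Its spliced mRNA (ENST00000331825.11) has 871 bases in 4 exons, with 199 bases of 5′ UTR, 528 of coding sequence and 144 of 3′ UTR. Site 1 spans 23 bases at chr19:48965587-48965609, bases 279 to 301 of the mRNA. Its mean coverage was 8 reads in Rep.A and 34.3 reads in Rep.B. It starts 79 bases after the first base of the start codon and 225 bases past the end of the IRE, and its last base is the last base of exon 1. In each replicate 2 of its 7 T bases were transition positions, a crosslinking efficiency of 0.29. Site 2 spans 22 bases at chr19:48966647-48966668, bases 639 to 660 of the mRNA, in exon 4. Its mean coverage was 7 reads in Rep.A and 27 reads in Rep.B. It lies 439 bases after the start codon, 65 bases before the stop codon and 585 bases past the IRE, and 1 of its 2 T bases was a transition position in each replicate. So the light chain mRNA was called near both ends of its coding sequence, and neither replicate had a cluster in its 5′ or 3′ UTR.

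A cluster was taken as reproducible when a cluster of the other replicate shared at least 1 base with it on the same strand. By this rule FTL had 2 reproducible regions and FTH1 had 0. Of all 20046 protein-coding genes, 3.9% held a cluster in Rep.A, 5.03% in Rep.B, 3.32% a reproducible region and 0.479% (96 genes) at least 2 such regions. FTL is 1 of these 96. The rule chose these genes with such calls known, so nothing is read from these shares.

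Within its own replicate each FTL cluster was of ordinary height. Site 1 stood at the 31.3 percentile of coverage among all clusters of Rep.A and at the 61.6 percentile in Rep.B. Site 2 stood at the 26.3 and the 52.3 percentile. The median cluster had 12.1 reads in Rep.A, against 25 for Rep.B, so both FTL sites were under this median in Rep.A and over it in Rep.B. Among clusters in exons of protein-coding genes alone, where the median of Rep.B was 32.9 reads, site 1 was over it there (53.8 percentile) and site 2 under it (39.6 percentile). Taking each gene's highest reproducible region in exons, 461 of 565 protein-coding genes stood above FTL in Rep.A and 333 in Rep.B. These values count only reads placed on the FTL gene, and both sites have called copies elsewhere, described below. Summed over 3 exact copies, site 1 had 26.7 reads for Rep.A, against 90.7 for Rep.B. The sums for site 2 were 17.9 and 37.0 reads. These sums lie over the median single cluster of their replicate, but no rank was taken for sums. By the reads placed on the gene itself, FTL was a called but not a high region. Among the 5 genes nearest to FTL by this measure, as the distance in log2 coverage over both replicates among 564 others, were GSK3A (8 and 33.8 reads in Rep.A and Rep.B), TOX4 (7.83 and 35.4) and CBFB (8 and 33).

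**Figure D1:**
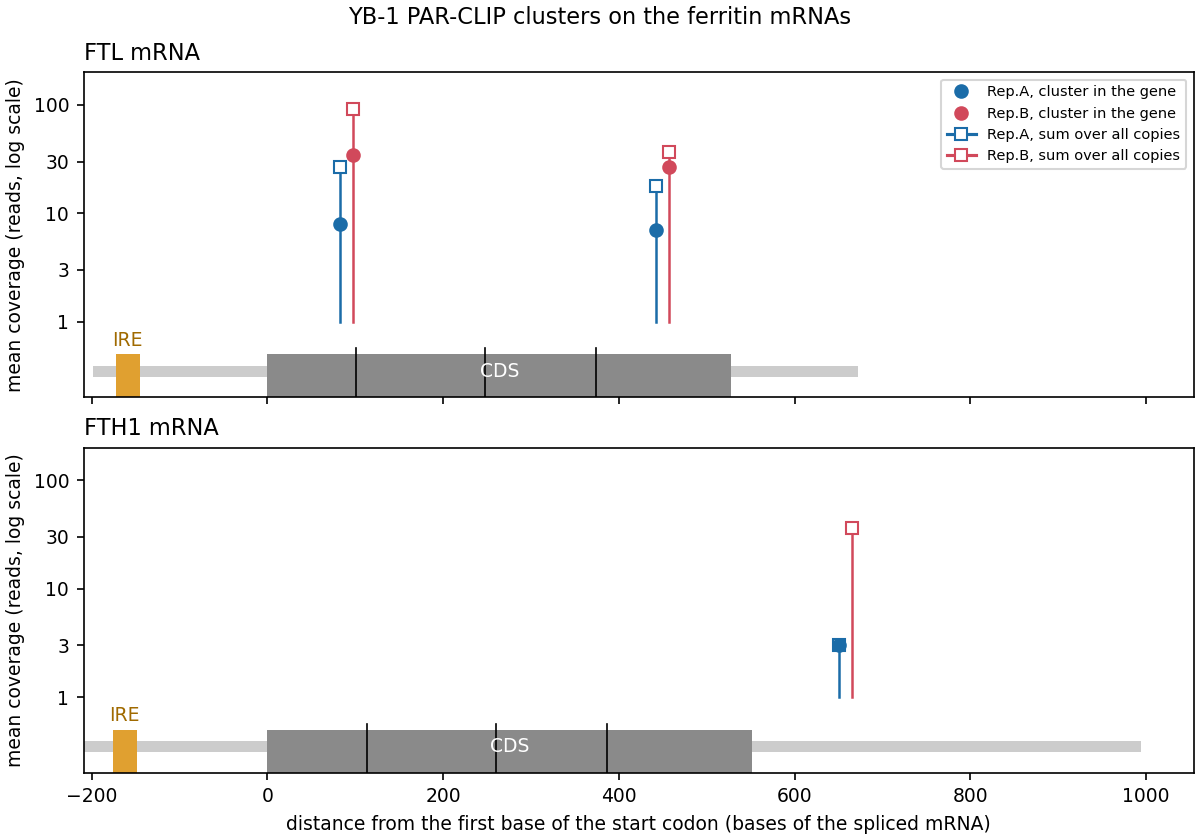
Clusters along the spliced FTL and FTH1 mRNAs, by distance in bases from the first base of the start codon (x axis) and mean coverage in reads on a log scale (y axis). Filled circles are clusters on the gene, open squares sums over all clusters of the same sequence on the gene and its copies, and the markers of Rep.A and Rep.B are set slightly apart so that both can be seen; FTL has filled circles in both replicates at 2 places in the coding sequence, FTH1 has 1 in Rep.A in the 3′ UTR, and the IRE (orange) has none.

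FTH1 carried 1 cluster, in Rep.A only, and it was in the 3′ UTR. The FTH1 gene (ENSG00000167996.16) spans chr11:61959718-61967634 on the minus strand, and its mRNA (ENST00000273550.12) has 1203 bases in 4 exons, with 209 bases of 5′ UTR, 552 of coding sequence and 442 of 3′ UTR. The cluster spans 19 bases at chr11:61964611-61964629 on the minus strand, bases 859 to 877 of the mRNA in exon 4. It starts 98 bases past the stop codon, 649 bases after the start codon and 799 bases past the IRE. Its mean coverage was 3 reads, the 4.56 percentile of Rep.A, with a transition at 1 of its 3 T bases. Coverage this low was uncommon in the table, since 94 of 1382 clusters of Rep.A (6.8%, 95% Wilson interval 5.59 to 8.25) had 3 reads or fewer. The study set a minimum coverage of 3 for positions with substitutions, so this cluster lies at that limit and the share is bounded by it. The table of Rep.B analysed here had no cluster anywhere in the span of FTH1. Part of that span is overlapped on the other strand by BEST1, a chloride channel gene, which held 0 clusters in either replicate.

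The same ferritin sequences were, however, called at other places in the genome, and all FTL calls had such copies. Exact copies were counted over both strands of hg38. Site 1 has 3 exact copies, in FTL, FTLP3 (chr20:4023996-4024018) and FTLP2 (chrX:30630377-30630399), and each was called in both replicates over exactly these 23 bases. FTLP3 had 7.87 reads in Rep.A, against 25.7 for Rep.B. FTLP2 had 10.9 and 30.6 reads, the highest of the 3 in Rep.A, while FTL was the highest in Rep.B. Summed over the 3 copies, site 1 had 26.7 reads in Rep.A, against 90.7 for Rep.B, of which the FTL position held 29.9% and 37.9%. The 3 positions therefore differed little in coverage, but the 2 pseudogenes showed 1 transition position where FTL showed 2.

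The aligner, as set, reports 1 position for a read that matches several. The study lists its options, among them one for the best match (--best). It does not say how 1 of several equally good positions was chosen. The base letters under the clusters of site 1 are the same at FTL, FTLP3 and FTLP2, so a read that ends within the site cannot be told apart between them. The letters beyond the site do differ, because exon 1 of FTL ends there in the genome. Below, site 1 is in lower case and the 7 bases that follow it are in capitals. FTLP3 and FTLP2 continue as the spliced mRNA does, while the FTL gene continues into its intron.
FTL mRNA: cctcctacacctacctctctctgGGCTTCT
FTLP3 and FTLP2 genome: cctcctacacctacctctctctgGGCTTCT
FTL genome: cctcctacacctacctctctctgGTGAGTC

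Clusters that end on the last base of an exon other than the last were few. They made up 18 of 711 clusters of Rep.A compared (2.53%, 1.61 to 3.97) and 21 of 906 of Rep.B (2.32%, 1.52 to 3.52), and site 1 is among them in both. Site 1 also ends in G and is preceded by G in the mRNA. The part of the exon border in where this cluster ends was not tested.

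Site 2 also has 3 exact copies, in FTL, FTLP15 (chr7:45997615-45997636, minus strand) and FTLP5 (chr19:3872008-3872030, where the called cluster is 1 base longer), and all 3 were called in both replicates. FTLP15 had 5 reads in Rep.A, against 7 for Rep.B. FTLP5 had 5.87 reads in Rep.A, against 2.96 for Rep.B. The sums were 17.9 and 37.0 reads, and the FTL position held 39.2% of the sum in Rep.A and 73.1% in Rep.B. In contrast to site 1, the copies of site 2 parted in Rep.B, with FTL at 27 reads well above both pseudogenes. The sequence around the site is less alike here. The FTLP15 copy matches the mRNA over 16 further bases upstream and 4 downstream, and the FTLP5 copy over 13 and 5. Identity to the FTL mRNA was taken over the aligned bases of each annotated pseudogene. It was 97.7% for FTLP3 and 93.9% for FTLP2, with 528 bases aligned in each. It was 84.9% for the 522 bases of FTLP15 and 86.2% for the 318 bases of FTLP5 that could be aligned.

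**Figure D2:**
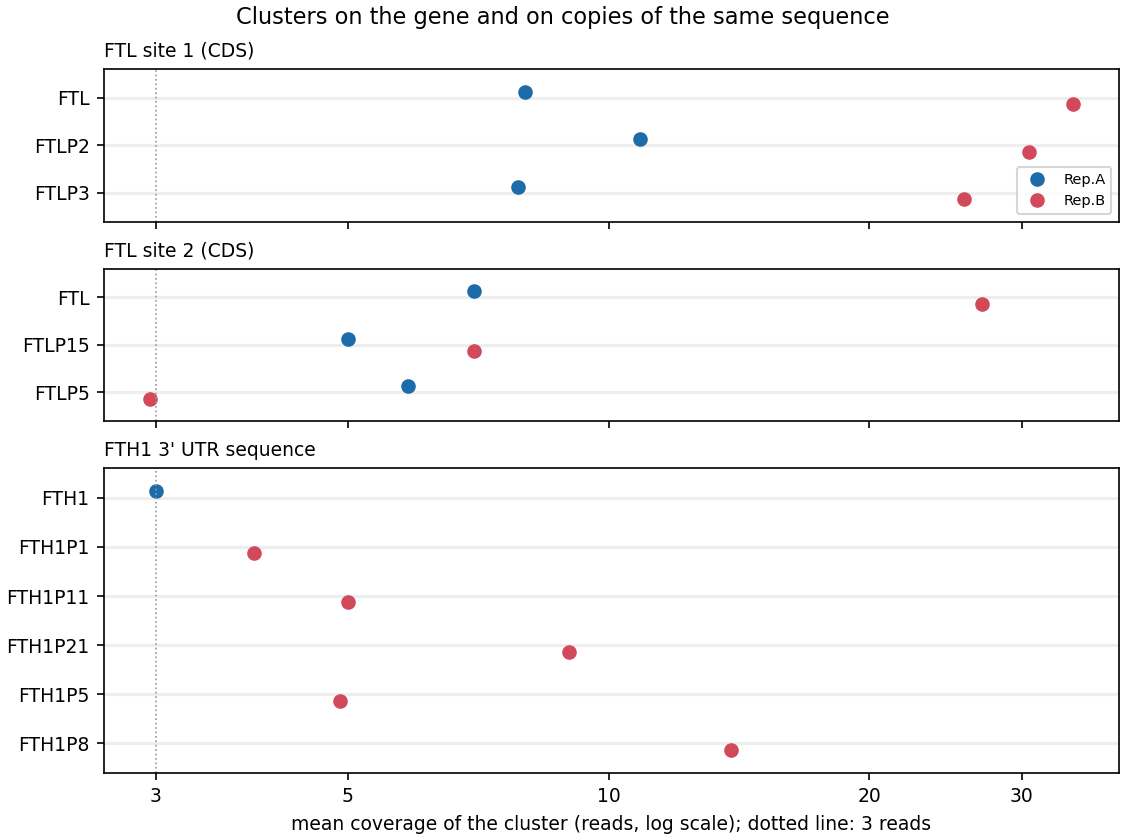
Mean coverage in reads (x axis, log scale) of the clusters on FTL site 1, FTL site 2 and the FTH1 3′ UTR sequence, by the gene or pseudogene where it was called (y axis), with Rep.A in blue and Rep.B in red. The 3 copies of FTL site 1 lie at 7.87 to 10.9 reads for Rep.A, against 25.7 to 34.3 for Rep.B, the copies of site 2 separate in Rep.B, and the FTH1 3′ UTR sequence was called at no place in both replicates.

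For FTH1, the clusters of Rep.B lay on pseudogenes. The 3′ UTR sequence of the Rep.A cluster occurs at 9 places in hg38. In Rep.B a cluster of 20 bases, starting 1 base earlier, was called at 5 of them, all on ground just past the annotated end of a pseudogene where the copied 3′ UTR continues. These lay 105 bases past FTH1P1 (3.9 reads), 130 past FTH1P21 (9 reads), 98 past FTH1P5 (4.9 reads), 100 past FTH1P11 (5 reads) and 114 past FTH1P8 (13.85 reads). Together they held 36.65 reads in Rep.B, where FTH1 itself had no cluster, against 3 reads in Rep.A, all on FTH1. The deposited relative log odds, a score with no fixed range, were negative at FTH1P8 (-0.018), which had the most reads, and at FTH1P1 (-0.027). They were 0.222 at FTH1P21 and 0.149 at both FTH1P5 and FTH1P11. No place was called in both replicates, although the sequence was called in each. A count restricted to the gene span, or to annotated pseudogene exons, therefore misses the FTH1 3′ UTR sequence in Rep.B. Counting from 1 at its 5′ end, 11 further places in hg38 differ from the 19-base sequence at 1 base, and at 1 of these the change is T15C, which reads as a T-to-C transition would. The part of that place in the call was not tested.

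The exon clusters on FTH1 pseudogenes were also in Rep.B only. FTH1P5 had 2.63 reads and FTH1P12 had 3.63 reads, each with 1 transition position. Both lie on copies of FTH1 coding sequence, so calls of FTH1 sequence were not restricted to its 3′ UTR, and they are not described further here. These are among the lowest values in Rep.B, where 96 of 2011 clusters (4.77%, 3.93 to 5.79) had 3 reads or fewer.

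GENCODE names 41 ferritin pseudogenes, 16 of FTL and 25 of FTH1. An exon cluster was called in 4 of them in Rep.A and in 6 in Rep.B, and all 4 of Rep.A (FTLP2, FTLP3, FTLP5 and FTLP15) were called in Rep.B too. Among the 15192 other pseudogenes 1.21% held an exon cluster in Rep.A and 1.71% in Rep.B. The sequence of each of the 10 exon clusters was found without mismatch in the mRNA of FTL or FTH1, and none of them can therefore be assigned to the pseudogene rather than to the parent mRNA. With the clusters past annotated ends, 20 clusters of both tables hold a ferritin mRNA sequence, and 10 pseudogenes stand beside the 2 genes. Such repeats were common in the tables, as 23.8% of the clusters of Rep.A (21.6 to 26.1) and 30% of those of Rep.B (28 to 32) had the same sequence as another cluster of their table. A sequence called at 3 or more places was rarer. There were 33 among 1196 distinct sequences in Rep.A and 83 among 1637 in Rep.B.

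Rep.B was the deeper library, so coverage was compared between replicates against all clusters. Over all 1116 pairs of overlapping clusters the log2 difference of Rep.B minus Rep.A had a median of 1.38 and an SD of 0.73, which is 2.60-fold. FTL site 1 differed by 2.10 (4.29-fold) and site 2 by 1.95 (3.86-fold), which is 0.72 and 0.57 above the median and within 1 SD of it. FTLP3 differed by 1.71 and FTLP2 by 1.49. These 4 places thus changed between the replicates about as other clusters did, at the 61.1 to 91.5 percentile of the difference. FTLP15 differed by only 0.49, the 6.36 percentile. FTLP5 was the exception in sign, with -0.99, so that its coverage was lower in the deeper replicate, and 5 of the 1116 pairs had a lower value. Summed over all copies, the difference was 1.76 for site 1, nearer to the median than that of FTL alone, and 1.05 for site 2, below the median. With 2 replicates the spread over all pairs is the error available, and no p-value was computed.

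**Figure D3:**
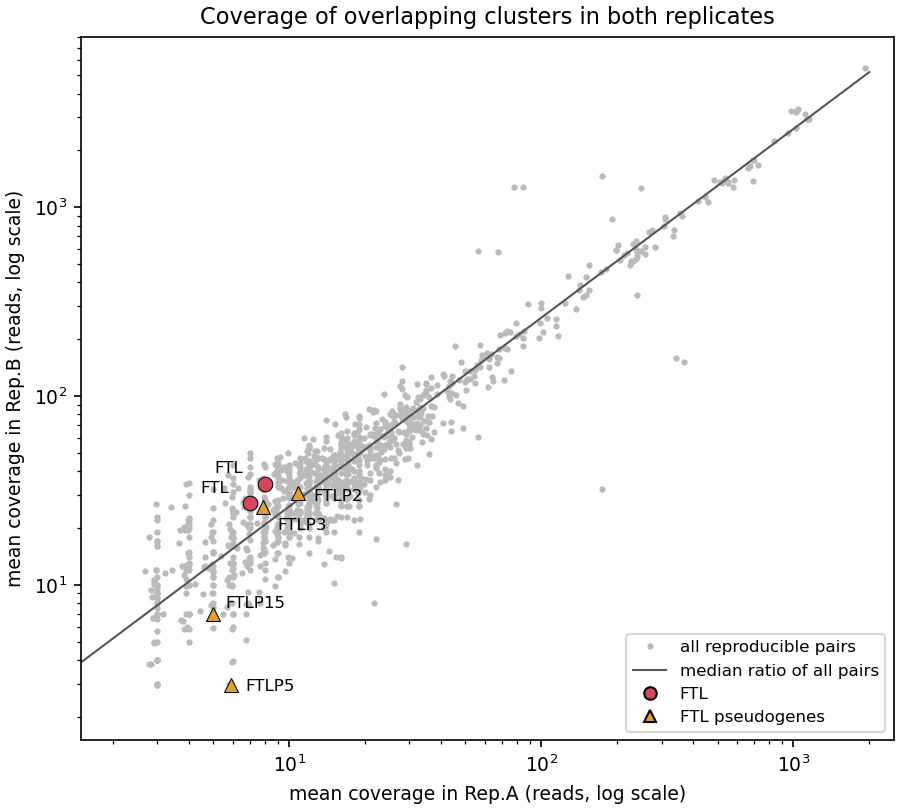
Mean coverage in Rep.A (x axis) and Rep.B (y axis), in reads on log scales, of all 1116 pairs of overlapping clusters (grey), with the 2 FTL sites in red and FTL pseudogenes as orange triangles. The line marks the median ratio of 2.60; both FTL sites lie above it within the cloud, FTLP15 lies below it, and FTLP5 lies at its lower border.

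The position of the sites was set beside all reproducible regions. Of 624 such regions on 1 chosen transcript per gene (534 genes), 367 were in coding sequence, 245 in 3′ UTRs and 12 (1.92%) in 5′ UTRs. FTL followed the common pattern in that both its regions were in coding sequence. The median region in coding sequence started 780 bases after the start codon and 552 bases before the stop codon. Only 10 of the 367 (2.72%) started nearer to the start codon than FTL site 1 at 79 bases, and 18 (4.9%) were nearer to the stop codon than site 2 at 65 bases. The FTL coding sequence has 528 bases in all, which limits how far a site in it can lie from either end.

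**Figure D4:**
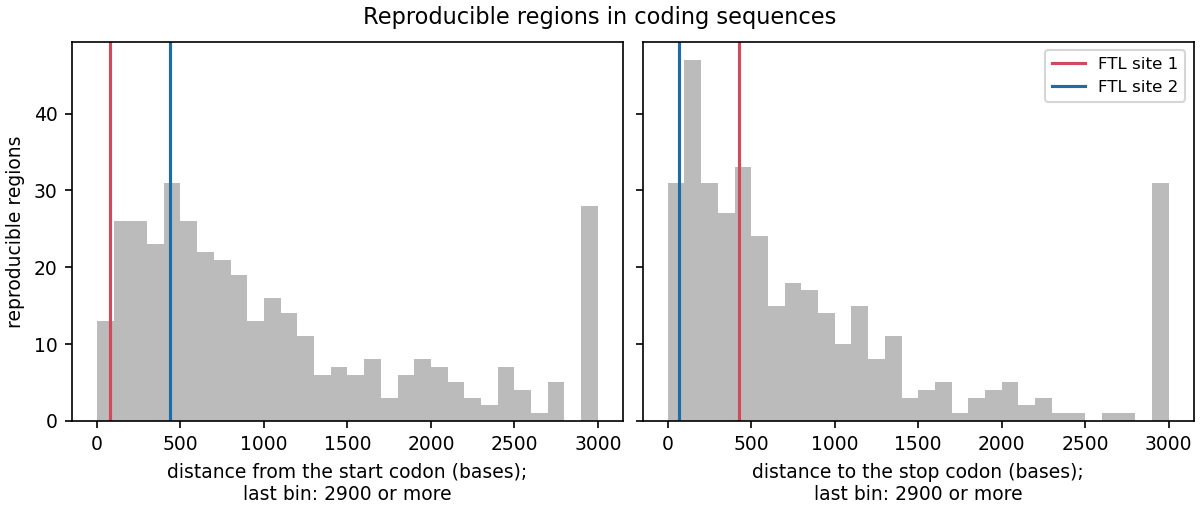
Reproducible regions in coding sequences (y axis, number of regions) by distance in bases after the start codon (left) and before the stop codon (right), in bins of equal width with the last bin open. Lines mark FTL site 1, at 79 bases from the start codon and 424 from the stop codon, and site 2, at 439 and 65 bases.

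The IRE was searched as a bulged C, a stem of 5 paired bases (G-T pairs allowed) and the 6-base loop CAGTGN, with any base but G as N. This pattern, on the mRNA strand, was found in the 5′ UTR of 11 of 18279 protein-coding genes (0.0602%), FTL and FTH1 among them. On the ferritin mRNAs and the genes of iron metabolism listed below it marked 9 elements in 6 genes, of which 4 are in the 3′ UTR of TFRC, the transferrin receptor mRNA that the iron regulatory proteins stabilise. The others lie in 5′ UTRs, among them those of SLC40A1 (the iron exporter ferroportin) and ALAS2 (the first enzyme of heme synthesis in red cells). No cluster of either replicate overlapped any of the 9. This says only that no cluster was called there at this depth. The nearest call on FTL began 225 bases downstream of the hairpin, and the hairpin of FTH1 was 799 bases from the only call on its gene.

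All 3 ferritin sequences shown for the clusters end in G, and the base before them on the mRNA is G for both FTL sites and T for the FTH1 3′ UTR sequence. Among all clusters the last base was G in 83.1% of Rep.A (81.1 to 85) and 77.7% of Rep.B (75.8 to 79.4). The ferritin sequences hold few G bases inside. There is 1 G in FTL site 1 and in the FTH1 sequence, and there are 2 in FTL site 2. In Rep.A 69.8% of all clusters (67.4 to 72.2) and in Rep.B 66.2% (64.1 to 68.2) held 2 or fewer, so the ferritin sequences were like most. FTL site 1 is rich in pyrimidines, with C or T at 82.6% of its bases, and the FTH1 3′ UTR sequence is not, with 47.4%.

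CACC was present in both FTL sites, and CATC in the FTH1 3′ UTR sequence, each read on the mRNA strand. Hence each of the 3 holds 1 of these tetramers and none holds both. Both were already known as frequent in these clusters, so this is no independent evidence for them. CACC was found in 35.7% of all clusters of Rep.A (33.2 to 38.2) and 34.0% of Rep.B (31.9 to 36.1), and CATC in 36.3% (33.8 to 38.8) and 32.9% (30.9 to 35). A pair of transition positions, as at FTL site 1, was seen in 13.8% of clusters of Rep.A (12.1 to 15.7) and 14.5% of Rep.B (13 to 16.1), counting those with more.

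The light and heavy chain genes share ancestry, and their coding sequences were aligned to see whether the called places correspond. They were identical at 349 of 522 aligned bases (66.9%). The stretch of FTH1 that aligns with FTL site 1, bases 301 to 323 of its mRNA, also ends on the last base of its exon 1 and matches at 17 of 23 bases (73.9%). The stretch that aligns with site 2, bases 661 to 682, matches at 17 of 22 (77.3%). Neither holds CACC or CATC, and neither had a cluster in either replicate. Below, bases of FTH1 that differ from FTL are in capitals.
FTH1 at FTL site 1: cctcctacGTTtacctGtcCAtg
FTH1 at FTL site 2: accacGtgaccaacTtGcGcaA
The called places of FTL thus had no called counterpart on the FTH1 gene.

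Of 41 other genes of iron metabolism, 1 (2.44%) held a cluster in Rep.A and 4 (9.76%) in Rep.B, beside the 3.9% and 5.03% of all protein-coding genes given above. The list held 13 further genes known or proposed to carry an IRE, 4 regulators, 10 genes of uptake and export, 7 of storage and its turnover and 7 of iron-sulfur cluster and heme synthesis. The regulators, among them ACO1 and IREB2, which encode IRP1 and IRP2, held no cluster, and neither did the genes of iron-sulfur cluster and heme synthesis. FTMT, the mitochondrial ferritin, and FTHL17, a ferritin heavy chain relative, held none. PCBP1, which delivers iron to ferritin and also binds C-rich RNA, was the 1 gene of the list called in both replicates. It had 2 reproducible regions in its coding sequence. The region 188 bases after its start codon (from chr2:70087932) had 14 reads in Rep.A, against 39.5 for Rep.B, a log2 difference of 1.496, and the region at 847 bases (chr2:70088591-70088612) had 26.5 and 44.4 reads, a difference of 0.74. Unlike those of FTL, the second of these sequences occurs once in hg38 and can be placed. The first also occurs once over the 22 bases of its Rep.B cluster. Its Rep.A cluster has only 11 bases, which occur at 1213 places.

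The remaining calls of the list were in Rep.B only. NCOA4, the receptor that carries ferritin to the lysosome, had 6 reads over a coding sequence stretch in exon 8 that has 3 exact copies in hg38. SLC25A28, a mitochondrial iron importer, had 21 reads in its 3′ UTR, 168 bases past the stop codon. APP, the amyloid precursor protein gene, whose mRNA is reported to have an IRE-like hairpin, had 4 reads in an intron. The other 37 genes had no cluster in either replicate, and since the tables hold no mRNA levels, their absence cannot be told apart from low expression in these cells.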

How the data were processed

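YB-1 PAR-CLIP clusters of 2 independent replicates of HEK293T cells were used as deposited. After trimming with cutadapt (2.10), the authors mapped the reads to hg38 using Bowtie (1.0.0), an aligner that reports 1 position for each read by default and does not split reads across introns. They ran wavClusteR on each replicate by itself. The tables analysed here hold fewer clusters than the study lists in each replicate, so the lack of a cluster at a place refers to these tables only. In the deposited tables, mean coverage is an unscaled signal (reads per base). The deposited counts of transition positions and of T bases are whole numbers, and crosslinking efficiency, their quotient, is a deposited fraction. The deposited log odds are a score with no fixed range.

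Here clusters were assigned to GENCODE release 44 genes by an overlap of at least 1 base on the same strand, and positions were taken on the MANE Select transcript. All 3393 of 3393 cluster sequences matched hg38 after turning minus-strand clusters to their own strand. Copies of each ferritin sequence, exact or with 1 mismatch, were sought in hg38 on either strand. Percentiles are within a replicate, with ties counted at their midpoint. Intervals are 95% Wilson intervals over clusters and cover counting error only. They treat clusters as independent, although 23.8% of those of Rep.A and 30% of those of Rep.B shared a sequence with another of their table. Reads carried no molecular identifiers in these tables. The members, the iron gene list and the tetramers were chosen with earlier results of these data known, so no p-value is given. Named genes are FTL, FTH1, each ferritin pseudogene and each iron list gene with a cluster, and the 5 genes nearest to FTL in coverage. Some genes and 1 sequence that this selects are not reported here. FTH1 has no reproducible region and so no such neighbours. The pairing of replicates, the IRE search, the copy search and the transcript positions were tested on simulated data. Alternatives were other overlaps, score and coverage filters, unique sequences, another depth reference and each replicate alone. Python 3.11.15, numpy 2.4.6, pandas 2.3.3, Biopython 1.88 and matplotlib 3.10.9 were used.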

Additional observations from a re-analysis of the deposited data

How the results depend on the processing

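The called places rest on low coverage and on sequences with copies. From 5 clusters in the ferritin genes, 2 reproducible regions, 10 pseudogene exon clusters and 4 iron list genes, the numbers became 3, 1, 5 and 2 with clusters at or above the median relative log odds, and 2, 0, 3 and 2 with at least 10 reads. With sequences found once in hg38, ferritin genes kept 0 clusters, 0 reproducible regions and 0 pseudogene clusters. With 1 replicate alone they ranged from 2 to 3 clusters and from 4 to 6 pseudogene clusters, with 1 to 4 list genes. A reproducible region needs both replicates, so with 1 replicate the cluster count of 2 to 3 stood in for it. By relative log odds in place of coverage, FTL site 1 stood at the 74.1 percentile in Rep.A and 36.3 in Rep.B, site 2 at 87.2 and 92.6, and FTH1 at 27.6. FTH1 stood at the 2.59 percentile among clusters in exons. Midpoints in place of first bases lay 90 (FTL site 1), 449.5 (site 2) and 658 bases (FTH1 3′ UTR) after the start codon. Ferritin sequences anywhere in hg38, chosen after seeing the data, gave 15 clusters in place of the 10 pseudogene exon clusters. The other depth references left site 1 between 0.69 and 0.73 above the reference and site 2 between 0.53 and 0.57. In all, 29 of 54 alternatives stayed within the spread between replicates or, for counts, within 1.5 times the count, and 25 did not. The 29 include positions on the longest coding sequence, which could not change because it is the same transcript for both genes. They also include the region counts of 1 replicate, which are cluster counts. The 25 include every change in a value with no such spread, as with the midpoints. The causes were not tested. No paired analysis was possible because there is 1 group.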
